A study of Mus musculus with 12 samples.

Results

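Arc, Homer1, Btg2, Gadd45g and Rgs2 are genes whose transcription in neurons follows synaptic activity, and they were followed here across 4 groups of mouse cortical cultures. They are 5 of the 12145 gene rows of the count table, and all 5 passed the filter on low counts. They were picked by name with earlier results of these counts in view: Arc, Btg2, Gadd45g and Rgs2 had been higher, and Homer1 lower, in miR-29-virus than in empty-virus cultures after oxygen-glucose deprivation, and Btg2 and Rgs2 had been lower after deprivation under the empty virus. Differences from those comparisons, from the interaction and, for Homer1, from deprivation under the miR-29 virus are therefore given as descriptions without a test.

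All cultures came from the cortex of C57BL6 embryos (E16.5-E17.5) and were infected on day 6 in vitro with a lentivirus, given 2 times at a multiplicity of infection of 1, for a total of 2. The virus carried miR-29c or no insert (empty). On day 14 in vitro the cultures were deprived of oxygen and glucose for 3 h and returned to medium for 4 h (OGD, a culture model of ischemia), or had the buffer exchanged in normal oxygen (sham), and rRNA-depleted total RNA was sequenced. The groups were sham-empty (n = 2) and, with n = 3 each, OGD-miR-29, OGD-empty and sham-miR-29, and same-numbered libraries come from cultures dissected on the same day. A 12th column, labelled sham-empty replicate 3, does not hold read counts: it sums to 22859, its value is 1 for the median gene and its Spearman correlation with the other libraries was 0.0438 to 0.0978. It was left out. The labels do not name the promoter that drives the insert or the share of cells infected, and the cultures are mixed, so in these bulk samples fewer cells of a type and less RNA per cell cannot be told apart.

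The 5 genes differ in what their products do. Arc binds the endocytic machinery of the postsynapse and promotes internalization of AMPA-type glutamate receptors. Homer1 encodes scaffolds that join group I metabotropic glutamate receptors to Shank proteins and inositol trisphosphate receptors, and a short activity-induced form that breaks those links. Rgs2 speeds the hydrolysis of GTP on Gq alpha subunits and so limits signalling from Gq-coupled receptors. Btg2 is an antiproliferative partner of the CCR4-NOT deadenylase and a p53 target, and Gadd45g belongs to a family of stress sensors that activate MAP kinase cascades. In neurons calcium entry switches on such genes through CREB, SRF and MEF2 bound near their start sites. miR-29 pairs through its seed, bases 2 to 8, with sites in the 3′ untranslated region of messenger RNAs, which shortens their life and lowers their translation.

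The mature miR-29 sequences are shown because the virus carries miR-29c and because the family shares a seed, which is in capitals (RefSeq, GRCm38.p6).
mmu-miR-29c-3p: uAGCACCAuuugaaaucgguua
mmu-miR-29a-3p: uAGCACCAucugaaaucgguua
mmu-miR-29b-3p: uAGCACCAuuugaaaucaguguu
The annotated 3′ untranslated regions of the 5 genes were searched on the sense strand for TGGTGCT, the complement of bases 2 to 8, and for GGTGCTA, the complement of bases 2 to 7 followed by A. Homer1 and Btg2 each held one of each kind, and Arc, Gadd45g and Rgs2 held neither. Of 10108 genes of the table with an annotated 3′ untranslated region, 24.4% had at least one of these matches, so 2 matched genes of 5 is a description and no enrichment. The Homer1 windows lie at chr13:93358705-93358734, in a transcript that ends inside the gene, and at chr13:93405044-93405073, in a transcript that runs to the end of the gene, both on the + strand of GRCm38. The Btg2 windows lie at chr1:134076086-134076115 and chr1:134075777-134075806 on the − strand. The matched letters are in capitals.
Homer1, first window: gatggcagctgcTGGTGCTttccttaagag
Homer1, second window: ttcaaccctacaGGTGCTActggattctgc
Btg2, first window: gctttagctcctTGGTGCTcagagcacctg
Btg2, second window: tttctgctcaaaGGTGCTAtttaccaaact

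The 250 bases before the start site are printed for the genes with a RefSeq entry, because CREB is known to bind the letters marked. Arc had no entry. Whether these letters bear on the levels of the genes was not tested. Capitals mark TGACG, which is one side of the cyclic AMP response element TGACGTCA, or its complement CGTCA.
Homer1: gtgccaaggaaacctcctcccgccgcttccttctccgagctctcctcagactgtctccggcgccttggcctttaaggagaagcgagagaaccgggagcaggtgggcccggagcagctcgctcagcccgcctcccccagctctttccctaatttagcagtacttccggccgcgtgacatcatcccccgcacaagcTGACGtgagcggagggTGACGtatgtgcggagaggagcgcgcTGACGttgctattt
Btg2: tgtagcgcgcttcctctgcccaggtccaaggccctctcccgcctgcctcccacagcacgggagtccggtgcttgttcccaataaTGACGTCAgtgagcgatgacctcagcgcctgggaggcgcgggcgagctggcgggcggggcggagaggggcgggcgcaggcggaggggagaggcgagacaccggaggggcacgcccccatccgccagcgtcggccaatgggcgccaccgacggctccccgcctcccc
Rgs2: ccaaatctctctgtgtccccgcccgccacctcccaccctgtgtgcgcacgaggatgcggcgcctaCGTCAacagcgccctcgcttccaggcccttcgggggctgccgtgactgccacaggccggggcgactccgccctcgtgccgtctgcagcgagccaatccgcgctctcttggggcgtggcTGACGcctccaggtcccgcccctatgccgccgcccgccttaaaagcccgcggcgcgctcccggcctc
Gadd45g: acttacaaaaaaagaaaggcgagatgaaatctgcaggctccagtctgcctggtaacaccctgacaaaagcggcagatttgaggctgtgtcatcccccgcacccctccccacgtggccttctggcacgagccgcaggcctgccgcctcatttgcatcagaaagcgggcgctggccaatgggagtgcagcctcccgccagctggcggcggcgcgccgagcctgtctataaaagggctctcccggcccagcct
These windows are chr13:93303507-93303756 (+), chr1:134079156-134079405 (−), chr1:144004150-144004399 (−) and chr13:51846425-51846674 (+) of GRCm38.p6, in the order printed. Btg2 held the whole element TGACGTCA, 166 bases before its start, which 1.55% of 32851 promoter windows of the same length hold on either strand. Its 2 TGACG matches overlap that element. Homer1 held 3 separate TGACG matches, starting at -56, -40 and -14, and Rgs2 held 2, at -185 and -67, while 17.8% of all windows hold at least one. Gadd45g held no TGACG, and held the TATA box letters TATAAA at -27 (12.4% of windows). CCAAT, which 33.8% of windows hold, lay at -78 in Gadd45g, at -173 and -34 in Btg2 and at -94 in Rgs2. No window of the 4 genes held TGANTCA, the AP-1 letters (6.75%), or a CArG box (1.47%). The second annotated start of Homer1 held none of the motifs searched.

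Position and length set Homer1 apart from the other 4 genes. In GRCm38, Arc lies at chr15:74669083-74672570 (−), Btg2 at chr1:134075170-134079120 (−), Gadd45g at chr13:51846678-51848468 (+) and Rgs2 at chr1:143999338-144004161 (−). Their spans are 3.488, 3.951, 1.791 and 4.824 kb, and most of each is exon. Homer1 lies at chr13:93299635-93405129 (+), a span of 105.495 kb of which 11.976 kb is exonic. In this count table a read near 2 genes could be counted for both, but no other gene of the table lies within any of the 5 genes or within 10 kb downstream. The counts are per gene, so the short and long forms of Homer1 cannot be told apart.

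Depth was low. Column totals were 1337564 to 6616920, of which rows of the mitochondrial genome held 57.6% to 84.1%, and outside those rows the sums were 231500 to 1362484. Counts of the 5 genes over the 11 libraries averaged 35.1 for Arc, 148 for Homer1, 23.6 for Btg2, 16.0 for Gadd45g and 77.8 for Rgs2. Single libraries went down to 5 counts (Gadd45g in OGD-empty replicate 3), so the values of Gadd45g and Btg2 carry the widest counting error. Levels below are CPM, counts relative to a library size scaled by the trimmed mean of M values (TMM), given as mean ± SD. Per kilobase of exon, Rgs2 was the highest of the 5 in each group (11.3 ± 0.665 in sham-empty, 9.11 ± 2.86 in sham-miR-29, 7.17 ± 0.347 in OGD-miR-29), except in OGD-empty, where Homer1 at 4.96 ± 0.491 CPM per exonic kb stood above Rgs2 at 4.26 ± 0.700, a gap within their spreads. In OGD-miR-29 Gadd45g, at 6.09 ± 1.26 CPM per exonic kb, was within its spread of Rgs2.

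Arc, the postsynaptic regulator of AMPA receptors, had its lowest values in OGD-empty and its higher values in both miR-29 groups. Its CPM values were 7.96 and 12.2 in sham-empty, 15.9, 15.4 and 14.7 in sham-miR-29, 6.79, 7.68 and 8.04 in OGD-empty, while the OGD-miR-29 libraries had 13.6, 19.3 and 9.13. OGD-empty (7.50 ± 0.641, n = 3) lay below OGD-miR-29 (14.01 ± 5.10, n = 3) without overlap, although replicate 3 of OGD-miR-29 was only just above the highest OGD-empty library, and OGD-empty overlapped sham-empty (10.1 ± 2.97, n = 2). Under OGD the difference between viruses was 0.94 ± 0.27 on the log2 scale (fold change and its standard error), positive in 3 of 3 same-day pairs (0.18 to 1.33). Between OGD-empty and sham-empty it was -0.50 ± 0.36, and -0.09 without sham-empty replicate 2. From low to high the group means ran OGD-empty, sham-empty, OGD-miR-29 and sham-miR-29 (15.3 ± 0.636), and neighbours in that order overlapped.

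Homer1, the receptor scaffold, went the other way from Arc between the viruses after OGD. Its CPM values were 46.7 and 49.8 in sham-empty, 65.6, 66.5 and 52.7 in sham-miR-29, 53.7, 65.5 and 59.0 in OGD-empty, while the OGD-miR-29 libraries had 37.7, 27.6 and 34.1. Every OGD-miR-29 library was below every other library, and sham-empty came next, below the OGD-empty and sham-miR-29 groups (59.4 ± 5.88 and 61.6 ± 7.71, n = 3 each), which overlapped. OGD-miR-29 (33.1 ± 5.12) differed from OGD-empty by -0.83 ± 0.19 (log2), lower in 3 of 3 pairs, and from sham-miR-29 by -0.88 ± 0.19, lower in 3 of 3 pairs (-1.27 to -0.63). OGD-empty was above sham-empty (48.3 ± 2.14) by 0.29 ± 0.22, higher in 2 of 2 pairs. That last direction turned with the gene-length trend removed (-0.13, and -0.16 with day as a block as well).

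Rgs2, which limits Gq signalling, had its highest group mean in sham-empty and its lowest in OGD-empty. Its CPM values were 42.8 and 39.4 in sham-empty, 33.0, 22.7 and 43.5 in sham-miR-29, 17.6, 12.6 and 16.1 in OGD-empty, while the OGD-miR-29 libraries had 24.98, 25.6 and 27.4. The OGD-empty libraries (15.4 ± 2.54, n = 3) were below all others, the OGD-miR-29 libraries (26.0 ± 1.26, n = 3) lay close together, and sham-miR-29 (33.04 ± 10.4, n = 3) spanned both the OGD-miR-29 and the sham-empty values (41.1 ± 2.41, n = 2). OGD-empty was lower than sham-empty by -1.38 ± 0.27 (log2), in 2 of 2 pairs, and OGD-miR-29 was higher than OGD-empty by 0.72 ± 0.24, in 3 of 3 pairs (0.51 to 1.02).

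Btg2, the antiproliferative CCR4-NOT partner, was low in OGD-empty and nearly level in the other 3 groups. Its CPM values were 10.9 and 11 in sham-empty, 9.10, 11.1 and 9.26 in sham-miR-29, 3.86, 3.16 and 5.90 in OGD-empty, while the OGD-miR-29 libraries had 9.55, 10.2 and 9.62. The 3 OGD-empty libraries (4.31 ± 1.42) lay below the range of the rest, 9.10 to 11.1 CPM. OGD-empty was lower than sham-empty by -1.40 ± 0.35 (log2) and OGD-miR-29 was higher than OGD-empty by 1.23 ± 0.28, with 2 of 2 and 3 of 3 pairs in that direction. These values rest on 7 to 52 counts a library.

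Gadd45g, the stress sensor, had the fewest counts of the 5. Its CPM values were 6.96 and 4.63 in sham-empty, 5.69, 5.38 and 9.0 in sham-miR-29, 2.78, 3.16 and 2.68 in OGD-empty, while the OGD-miR-29 libraries had 5.69, 7.09 and 8.65. The OGD-empty libraries (2.87 ± 0.254, n = 3) were again below all others, and the other 3 groups overlapped each other. OGD-miR-29 (7.15 ± 1.48, n = 3) was above OGD-empty by 1.26 ± 0.34 (log2), in 3 of 3 pairs (1.03 to 1.69), and OGD-empty was below sham-empty (5.80 ± 1.65, n = 2) by -0.95 ± 0.47, in 2 of 2 pairs (-1.32 to -0.55).

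**Figure D1:**
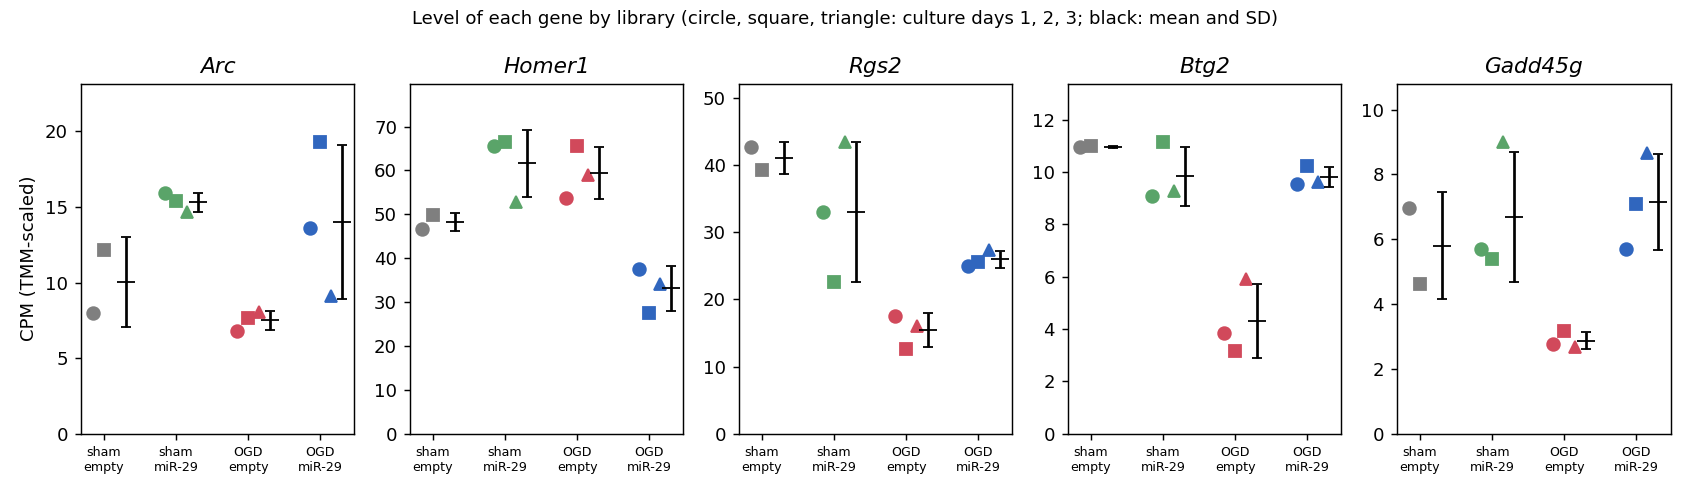
Level of each gene in CPM (vertical axis, linear from 0) in the 11 libraries of the 4 groups (horizontal axis); symbols give the culture day and black bars the mean and SD. Btg2, Gadd45g and Rgs2 were lowest in the 3 OGD-empty libraries, and Homer1 was lowest in the 3 OGD-miR-29 libraries, at 27.6 to 37.7 CPM.

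Between the viruses after OGD, all 5 genes had groups that did not overlap, 4 higher and 1 lower. These comparisons chose the genes, so the counts are no result about them: of all 12119 genes tested, 25% had higher and 25.2% lower values without overlap, and 37.1% were called at an adjusted p under 0.05 (17.2% higher, 19.9% lower). Between OGD and sham under the empty virus, Homer1 was higher and Btg2, Gadd45g and Rgs2 lower without overlap, beside 22% and 21.6% of all genes, with 5.09% called (1.48% higher, 3.61% lower). The 5.09% called are 617 genes in both directions. That count became 1369 with day as a block, and 12 and 76 without sham-empty replicates 1 and 2. It was 402 without sham-miR-29 replicate 1, and 984 and 367 without OGD-empty replicates 1 and 3. Those 2 comparisons share the OGD-empty libraries and are not independent of each other. The interaction, the change with OGD under miR-29 less that under the empty virus, was -1.18 ± 0.30 (log2) for Homer1, 1.39 ± 0.43 for Btg2, 1.02 ± 0.35 for Rgs2, 0.96 ± 0.55 for Gadd45g and 0.39 ± 0.44 for Arc, in a term that called 8.38% of all genes, 4.72% positive and 3.66% negative (1015 in all, and 1861 with day as a block). Its count was 64 and 93 without sham-empty replicates 1 and 2, 647 and 308 without sham-miR-29 replicates 1 and 2, and 634 and 439 without OGD-miR-29 replicates 2 and 3. After removal of the gene-length trend described below, with day as a block, the interaction was -0.55 ± 0.28 for Homer1, 0.84 ± 0.45 for Btg2, 0.62 ± 0.31 for Rgs2 and 0.48 ± 0.56 for Gadd45g, and Arc turned to -0.34 ± 0.42. Without sham-empty replicate 2 the Arc value was -0.0054.

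A ratio of counts within a library does not depend on how libraries are scaled. The ratio of Homer1 to the other 4 genes restates the differences for which they were chosen, and it sets a gene of 105.495 kb against genes under 5 kb, so it is a description and no further support. The Homer1 count divided by the summed counts of Arc, Btg2, Gadd45g and Rgs2 was 0.681 and 0.741 in sham-empty, 1.03, 1.22 and 0.690 in sham-miR-29, 1.73, 2.46 and 1.80 in OGD-empty, while the OGD-miR-29 libraries had 0.700, 0.443 and 0.623. The OGD-empty ratios (2.00 ± 0.400, n = 3) were above all others, while OGD-miR-29 (0.589 ± 0.132, n = 3) overlapped sham-empty and sham-miR-29. Against each of the 4 genes alone the ratio was also highest in OGD-empty. The gap was widest for Gadd45g, with 19.3 to 22.0 in OGD-empty and at most 12.4 elsewhere, and narrowest for Rgs2, with at least 3.05 in OGD-empty and at most 2.93 in sham-miR-29. A ratio shows unequal change and not which of the genes changed.

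**Figure D2:**
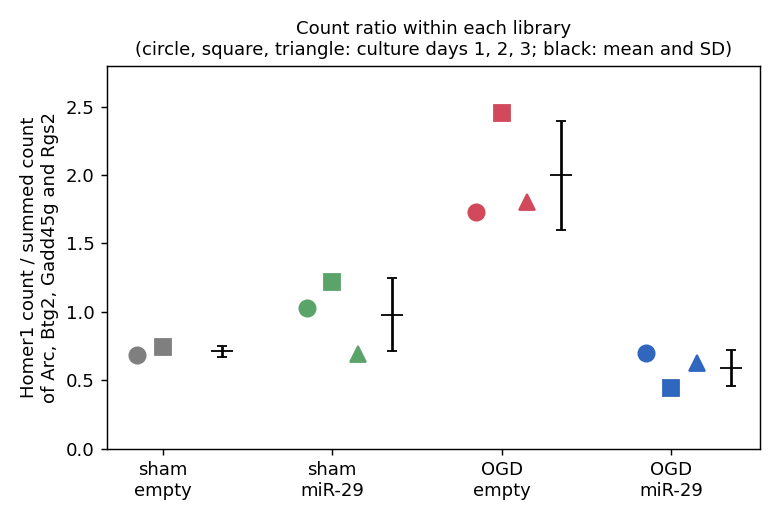
Homer1 count over the summed count of the 4 short genes (vertical axis, a ratio from 0) in each library by group (horizontal axis); symbols give the culture day and black bars the mean and SD. The 3 OGD-empty libraries lie at 1.73 to 2.46 and the other 8 at 0.443 to 1.22.

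Comparisons that did not choose the genes gave no call. Under the miR-29 virus, OGD against sham was -0.12 ± 0.25 (log2; 95% interval -0.71 to 0.48) for Arc, -0.00 ± 0.25 (-0.59 to 0.58) for Btg2, 0.01 ± 0.31 (-0.74 to 0.75) for Gadd45g and -0.36 ± 0.22 (-0.89 to 0.17) for Rgs2. The adjusted p of edgeR's quasi-likelihood test was 0.910, 0.999, 0.999 and 0.620 for these 4 genes, and the groups overlapped for each, where 8.19% of all genes were higher and 8.69% lower without overlap, Homer1 among the latter. The 2 calls among all genes were 0.0165% of those tested. By DESeq2 and limma-voom 2 genes were called as well, and 1111 had an unadjusted p under 0.05.

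In sham cultures, the virus was compared without OGD. The difference of miR-29 from empty virus was 0.55 ± 0.34 (log2; 95% interval -0.25 to 1.35) for Arc, 0.35 ± 0.22 (-0.18 to 0.88) for Homer1, -0.16 ± 0.32 (-0.91 to 0.58) for Btg2, 0.30 ± 0.42 (-0.68 to 1.29) for Gadd45g and -0.30 ± 0.26 (-0.91 to 0.31) for Rgs2. The adjusted p was 0.9995 for each (edgeR), and 0% of all genes were called, with 0 calls by DESeq2 and limma-voom too and 405 genes at an unadjusted p under 0.05. Arc and Homer1 were higher in 2 of 2 pairs without overlap, as were 10.6% of all genes, and the other 3 genes overlapped. A p that misses the threshold does not show that the viruses act alike: with n = 2 sham-empty libraries the intervals reach 1.35 for Arc and 1.29 for Gadd45g.

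**Figure D3:**
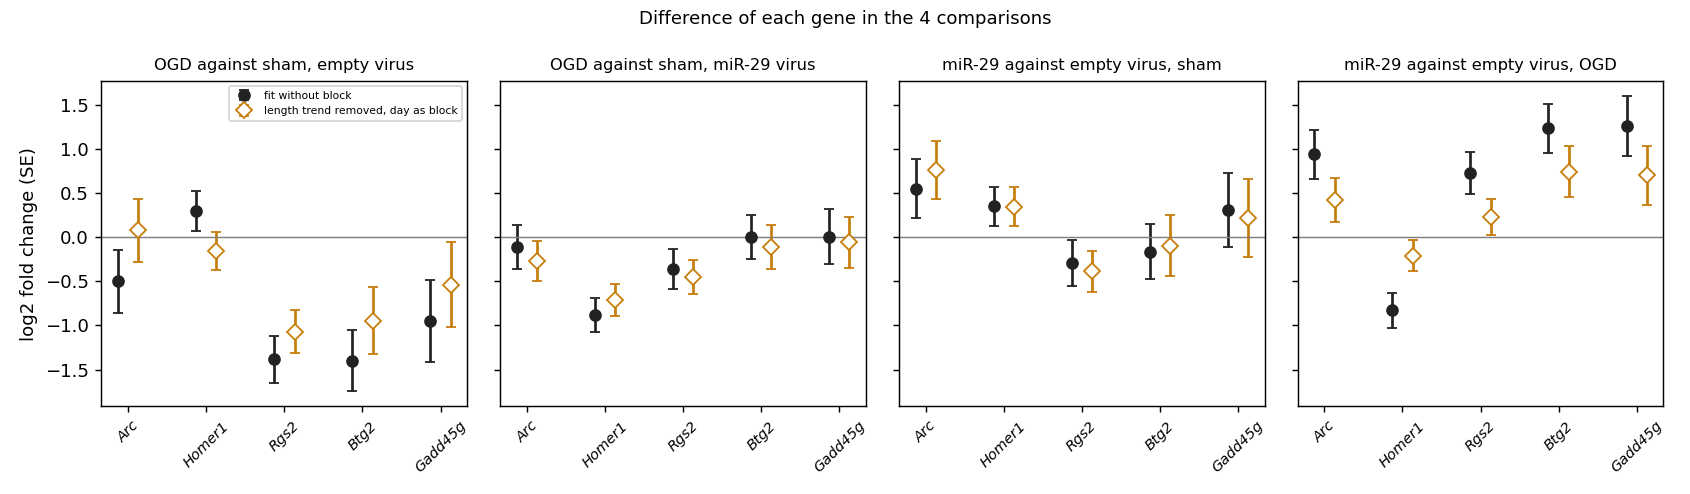
Log2 fold change of each gene (vertical axis, bars are the standard error) in the 4 comparisons; filled circles are the fit without a block and open diamonds the fit with the gene-length trend removed and day as a block. The differences of Arc, Btg2, Gadd45g and Rgs2 between viruses after OGD shrank from 0.72 to 1.26 down to 0.23 to 0.74 in the second fit, and that of Homer1 from -0.83 to -0.21.

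Gene length moved with these comparisons across the whole table, and the members are of unlike length. After OGD, the 2322 genes with a span under 5 kb, the class of Arc, Btg2, Gadd45g and Rgs2, had a median difference between viruses of 0.54 (log2) with 35.6% called higher and 6.2% lower. The 1044 genes of 100 to 200 kb, the class of Homer1, had a median of -0.78 with 51.3% called lower and 0.862% higher. Homer1, at 105.495 kb, is near the lower edge of that class. Genes of 50 to 100 kb had a median of -0.42 and those of 200 kb and over -1.51. Homer1 at -0.83 lay close to the median of its class, and Arc, Btg2, Gadd45g and Rgs2 (0.72 to 1.26) lay above that of theirs. For OGD against sham under the empty virus the medians of genes under 5 kb and of 100 to 200 kb were -0.42 and 0.58. The short genes (-1.40 to -0.50) lay below the first. Homer1 at 0.29 ± 0.22 lay below the second and near the 0.30 of genes of 50 to 100 kb. For OGD against sham under the miR-29 virus, Homer1 at -0.88 ± 0.19 lay below the median of its class, -0.19. With the length trend removed and day as a block, that Homer1 difference was -0.71 ± 0.18. Across 11925 genes the Spearman correlation of the difference with span was -0.580 between viruses after OGD and 0.528 for OGD under the empty virus. It was -0.322 for OGD under the miR-29 virus, -0.521 for the interaction and 0.0222 between viruses in sham. It is a correlation across genes, which are not replicates. The difference between genes over 100 kb and under 5 kb in a library, in median log2 deviation, was 0.56, 1.47 and 0.63 for the OGD-empty libraries and -0.47, -0.59 and -0.66 for those of OGD-miR-29.

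With the length trend taken out of each library and day as a block, the differences between viruses after OGD were 0.42 ± 0.25 for Arc, -0.21 ± 0.18 for Homer1, 0.74 ± 0.29 for Btg2, 0.70 ± 0.33 for Gadd45g and 0.23 ± 0.20 for Rgs2 (log2). The directions stayed and the sizes were smaller than without that correction. For OGD under the empty virus the corrected differences were -0.95 for Btg2, -1.07 for Rgs2, -0.54 for Gadd45g, -0.16 for Homer1 and 0.08 for Arc, so that Homer1 and Arc turned. OGD-empty replicate 2 stood apart on the length measure. Without it, the differences between viruses were 0.94 for Arc, -0.78 for Homer1, 1.10 for Btg2, 1.26 for Gadd45g and 0.57 for Rgs2.

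**Figure D4:**
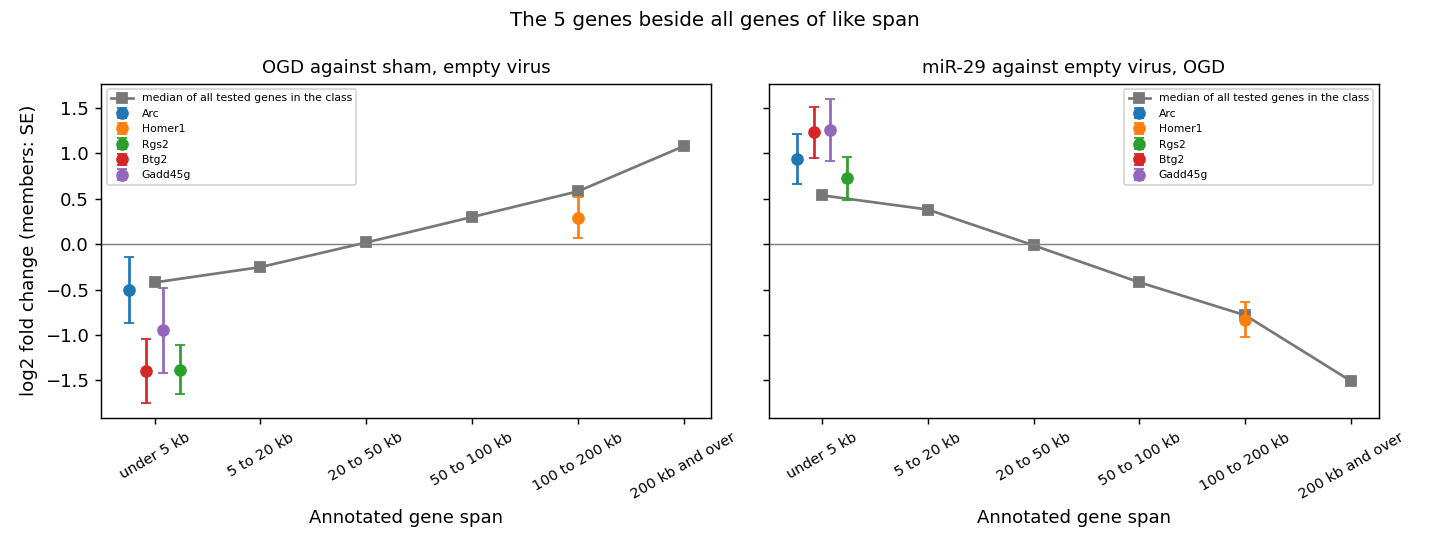
Log2 fold change (vertical axis) of the 5 genes with their standard error, placed in their class of gene span (horizontal axis), beside the median of all tested genes in each class. Homer1 lies near the line between viruses after OGD (-0.83 against -0.78) and below it for OGD under the empty virus (0.29 against 0.58), and Btg2 lies farther from 0 than the median of genes under 5 kb in both.

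Other immediate early transcription factors, which the same calcium signals induce, moved in both directions between viruses after OGD. Of 21 listed, 17 were tested, and 5 rose and 2 fell in OGD-miR-29 against OGD-empty (median 0.53, against 0.02 for all genes; edgeR adjusted p under 0.05). That is close to the 37.1% called among all genes, so the count does not set these factors apart. The stress factor Atf3 went from 6.64 ± 0.413 to 13.9 ± 0.673 CPM (1.08 ± 0.26, adjusted p = 0.00410), and held its direction and call in all 21 alternatives. Fos, the partner of Jun proteins in AP-1, went from 13.2 ± 2.47 to 23.8 ± 6.6 CPM (0.83 ± 0.26, adjusted p = 0.0170). Ier5 rose by 1.20, Junb by 1.01 and Jund by 0.79, where Junb and Jund can hold reads of Prdx2 and Gm11175 nearby. Egr1, a zinc finger factor, went from 11.6 ± 2.28 down to 6.09 ± 1.95 CPM (-0.87 ± 0.29, adjusted p = 0.0239), and Fosl2 fell by 0.60. Npas4 and Nr4a1, at 0.53 and 0.54, were not called.

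In OGD-empty against sham-empty, Fos (-1.11 ± 0.30, adjusted p = 0.0379) and Atf3 (-1.40 ± 0.31, adjusted p = 0.0164) fell and no other tested factor of the list was called, with a list median of -0.49. Fos lost its call without sham-empty replicate 1 (adjusted p = 0.104) or 2 (0.525), as did Atf3 (0.125 and 0.140). Over all 21 alternatives the call was lost in 11 for Fos and in these 2 for Atf3. With the length trend removed and day as a block, Egr1 (1.64 ± 0.42, edgeR adjusted p = 0.0191) was called higher and Atf3 (-1.63) lower. Fos was at -0.66 (adjusted p = 0.195) in that fit, which called 4.18% of all genes. In the remaining comparisons, 0 genes of any list were called by OGD under the miR-29 virus or by the virus in sham. After removal of the length trend with day as a block, Fos (-0.95 ± 0.21, adjusted p = 0.0325) and Fosl2 (-1.11 ± 0.20, adjusted p = 0.00527) were lower with OGD under the miR-29 virus, in a fit that called 0.226% of all genes.

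Among other activity-regulated genes, 21 of 28 were tested and 3 rose between viruses after OGD, with 0 lower and a median of 0.27, beside 17.2% higher and 19.9% lower among all genes. In the fit with the length trend removed and day as a block, 0 were higher and 2 lower, Dusp4 (-0.68 ± 0.18) and Sik1 (-0.97 ± 0.29). Plk2, an activity-induced kinase, went from 43.5 ± 5.5 to 80.2 ± 6.25 CPM (0.88 ± 0.21, adjusted p = 0.00356). Nrn1, a secreted neurite factor, rose by 0.86 and can hold reads of Fars2. Rgs4, a regulator of Gq and Gi signalling like Rgs2, rose by 0.59 and had fallen in OGD-empty against sham-empty (-1.02 ± 0.24, adjusted p = 0.0224). The length trend with day as a block left Rgs4 at 0.15 (adjusted p = 0.615) and -0.68 (0.0778), and over 21 alternatives its calls were lost in 8 and 6. Bdnf, the growth factor, was at -0.51 ± 0.26 and Nptx2 at 0.46 ± 0.33, neither called.

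The families of the 5 genes did not move as units. Of the other Homer genes, Homer3 rose between viruses after OGD from 4.66 ± 1.07 to 8.89 ± 1.17 CPM (0.98 ± 0.29, adjusted p = 0.0124, with reads possibly shared with Cope), and Homer2 was at -0.54 ± 0.27, not called. Homer3 spans 11.535 kb and Homer2 107.047 kb. Gadd45b, the other tested member of its family, was at 0.80 ± 0.46, and Btg1 at -0.30 ± 0.36, neither called. Tob2, an antiproliferative relative of Btg2, fell from 8.01 ± 2.03 to 4.13 ± 0.256 CPM (-0.95 ± 0.30, adjusted p = 0.0187). Of the 9 other tested RGS genes, the 2 called higher were Rgs4 and Rgs10 (1.14 ± 0.36). The 4 called lower were Rgs6 (-2.22), Rgs7 (-2.45), Rgs17 (-1.46) and Rgs20 (-1.80, with reads possibly shared with Atp6v1h). Among all genes 17.2% were called higher and 19.9% lower. The Rgs7 mean in OGD-empty, 101.5 CPM, rests on a library at 220.8, and without OGD-empty replicate 2 the Rgs7 difference was -1.19. Rgs6 lost its call in 11 of 21 alternatives and was at -0.31 with the length trend removed and day as a block. In that fit Rgs10 and Rgs12 were called higher and Rgs7 and Rgs17 lower. Rgs17 was higher in OGD-empty against sham-empty (1.82 ± 0.36, edgeR adjusted p = 0.00707), a call kept in that fit (1.43).

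Partners of the encoded proteins were mostly lower with miR-29 than with the empty virus after OGD. Of 16 tested partners of Arc and Homer1, 8 fell and 1 rose, with a median of -0.79, beside 19.9% and 17.2% of all genes. None of the 8 falls was called after removal of the length trend with day as a block, where 0 of the 16 were lower, 1 was higher and the median was -0.06. The metabotropic receptor Grm5 (-2.06), which Homer proteins bind, fell, as did the scaffolds Dlgap1 (-2.12), Shank2 (-1.49) and Shank3 (-0.65) and the calcium channels Ryr2 (-1.81), Itpr1 (-0.81) and Trpc1 (-0.91). Dlgap1 and Itpr1 turned direction with the length trend removed (0.0604 and 0.44). The largest folds rest in part on OGD-empty replicate 2: without it Grm5 was at -1.40 and Dlgap1 at -0.89. Sh3gl1, an endophilin bound by Arc, rose by 0.85. Of 6 genes for Gq and phospholipase C beta, the pathway that Rgs2 limits, Gnaq (-1.44), Plcb1 (-2.33) and Plcb4 (-1.68) fell, and Plcb3 rose by 1.12. Sh3gl1 can hold reads of Mpnd, and Plcb3 of Ppp1r14b. Plcb1 was at -1.44 without OGD-empty replicate 2, and 0 of the 6 were called once the length trend was removed with day as a block. In OGD-empty against sham-empty, Shank2 (1.38 ± 0.39, adjusted p = 0.0464) was higher, a call lost in 10 of 21 alternatives, among them the length trend with day as a block (0.47, adjusted p = 0.447).

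Regulators that carry calcium and ERK signals to such promoters had 11 of 18 tested genes lower and 0 higher between viruses after OGD (median -0.87), beside 19.9% lower among all genes. With the length trend removed and day as a block 2 of the 18, Mef2a and Ep300, were lower (median -0.36), where 23.6% of all genes were called. Mef2c, an activity-dependent transcription factor, went from 66.3 ± 6.74 to 28.0 ± 8.53 CPM (-1.23 ± 0.22, adjusted p = 7.49e-04). Also lower were Mef2a (-1.49), the nuclear calcium-dependent kinase Camk4 (-1.55), the histone deacetylase Hdac4 (-1.54), the acetyltransferases Crebbp (-1.16) and Ep300 (-1.19), and Creb1 itself (-0.78). Creb1, Mef2a, Camk4 and Crebbp can hold reads of Mettl21a, Lysmd4, Stard4 and Trap1. In OGD-empty against sham-empty, 2 of the 18 were called, Camk4 (1.13 ± 0.32, adjusted p = 0.0429) and the SRF coactivator Mkl1 (1.28 ± 0.36, adjusted p = 0.0459), both higher. Camk4 lost this call in 9 and Mkl1, which can hold reads of Sgsm3, in 13 of 21 alternatives, and the length trend with day as a block left them at 0.38 (adjusted p = 0.489) and 0.59 (0.313). Of 11 tested genes of the p53 pathway, which also regulates Btg2, Bax and Bbc3 rose by 0.67 and 1.00, Zmat3 fell by 1.16 and Cdkn1a was at -0.14 ± 0.29, with a median of -0.05. Bax went from 64.3 ± 3.33 in sham-empty to 33.9 ± 11 CPM in OGD-empty (-0.93 ± 0.26, adjusted p = 0.0457), a call lost in 13 of 21 alternatives (-0.53, adjusted p = 0.221 with the length trend removed and day as a block). It can hold reads of Gys1, as Bbc3 can of Sae1.

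The called genes of these lists divided by span. The 14 that rose between viruses after OGD spanned 1.668 to 47.744 kb, 11 of them under 20 kb, and the 30 that fell had a median span of 170.8 kb, 20 of them 100 kb or more. Taking out the length trend with day as a block kept 3 of the 14 (Atf3, Junb and Rgs10) and 8 of the 30, among them Egr1, Fosl2, Tob2, Rgs17, Mef2a and Zmat3. Under that correction 23.6% of all genes were called, and the medians of the immediate early factors and of the Arc and Homer1 partners were 0.06 and -0.06.

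**Figure D5:**
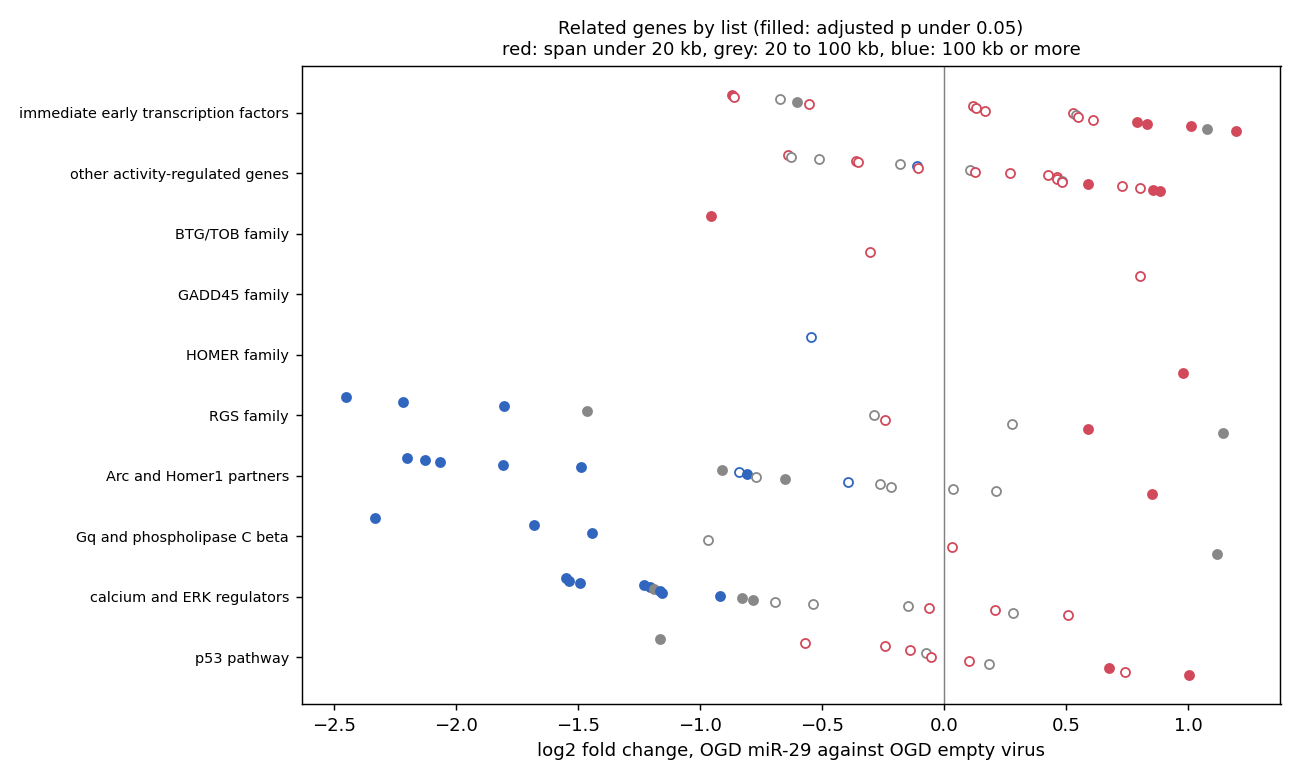
Log2 fold change of OGD-miR-29 against OGD-empty (horizontal axis) for each tested gene of 10 lists (rows), filled where the adjusted p was under 0.05 and coloured by gene span. The members Homer1, Btg2, Gadd45g and Rgs2 belong to some of these lists and are not drawn. Genes of 100 kb or more lie to the left, with the regulators of calcium and ERK signalling at 11 called lower and 0 higher.

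Genes whose CPM followed each member most closely over the 11 libraries are given as a description, without a p, since the libraries share groups, depth and the length trend. For Arc they were Lypd8 (Pearson r = 0.925), Jagn1 (0.918) and Snapc2 (0.908), and for Homer1 4833424O15Rik (0.941), Gm15834 (0.939) and Dmxl1 (0.925). For Btg2 they were Gm10171 (0.973, Spearman 0.691), Nxf1 (0.958) and Rnf114 (0.954). For Gadd45g they were Eif4a-ps4 and Gm11577, which hold identical values (0.973), and Tenc1 (0.962), and for Rgs2 Gm20628 (0.964), Dbi (0.960) and Hist1h4a (0.941). Among the members, Btg2 and Rgs2 had r = 0.799 (Spearman 0.50), Btg2 and Gadd45g 0.763 (0.40), and Gadd45g and Rgs2 0.756 (0.72). Arc had r = 0.432 with Rgs2, 0.559 with Gadd45g and 0.660 with Btg2. Homer1 was negative with each of the other 4 (-0.52 to -0.24).

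Markers of cell types moved with the same groups. Summed CPM of 11 neuron markers, all in the table, was 1171 to 1407 in OGD-empty, 744 to 906 in OGD-miR-29 and 868 to 1108 in the sham groups. Single neuron markers went both ways between viruses after OGD. Of the 11, 5 were called lower and 1 higher, beside 19.9% and 17.2% of all genes. The 5 were the long genes Syt1 (-1.82), Map2 (-1.16) and Rbfox3 (-1.75), with Snap25 (-0.63, 68.976 kb) and Gad2 (-0.77, 71.67 kb). Tubb3, of 10.592 kb, rose (0.87) and can hold reads of Gm20388. After removal of the length trend with day as a block, no neuron marker was called lower, and Tubb3 (0.50) and Stmn2 (0.56) were higher. Of 11 microglia markers, 4 were in the table (Aif1, Cx3cr1, Csf1r and Fcer1g), at a sum of 22.0 to 30.0 CPM in OGD-empty and 33.8 to 45.9 CPM elsewhere, while Tmem119, P2ry12 and Itgam had no row. These 4 can hold reads of Prrc2a, Wdr48, Hmgxb3 and Apoa2. Between viruses after OGD, Aif1 (1.54 ± 0.38, edgeR adjusted p = 0.00512) and Fcer1g (1.07 ± 0.40, adjusted p = 0.0425) were called higher. Cx3cr1 was at 0.05 and Csf1r at 0.11, neither called. With the length trend removed and day as a block, Aif1 (1.09, adjusted p = 0.0142) and Cx3cr1 (0.89, adjusted p = 0.00399) were called higher. Fcer1g (0.54) and Csf1r (0.08) were not called in that fit. Astrocyte markers (8 of 9, without Gfap) summed to 118 to 142 CPM in OGD-empty and 101 to 117 in OGD-miR-29. The sham groups had 102 to 128. Oligodendrocyte lineage markers (4 of 9) summed to 14.1 to 16.1 CPM in OGD-empty and 16.3 to 20.9 elsewhere. Fibroblast markers (2 of 4) summed to 2.98 to 9.26 and cycling progenitor markers (2 of 3) to 5.97 to 18.3. Of 7 endothelial markers, 0 had a row. Between viruses after OGD, Slc1a2 (-1.18) and Mki67 (-1.06) were called lower and Sox10 (1.14) higher. With the length trend removed and day as a block, Mki67 (-1.14) was still called lower and Aldh1l1 (0.92) was higher. Slc1a2 and Sox10 were not called in that fit. Mki67 and Sox10 can hold reads of Ptpre and Polr2f. The part of cell makeup in the values of the 5 genes was not tested.

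The authors' deposited tables compare both OGD groups with sham-empty. For OGD-empty, the authors' deposited table gave log2 fold changes of -0.33 for Arc, 0.76 for Homer1, -1.37 for Btg2, -0.97 for Gadd45g and -1.01 for Rgs2, with the smallest false discovery rate of the 5 at 0.237. For OGD-miR-29, the authors' deposited table gave 0.74 for Arc, -0.10 for Homer1, -0.02 for Btg2, 0.25 for Gadd45g and -0.28 for Rgs2. The own value of Homer1 for OGD-empty was 0.29, and 0.49 with the column of sham-empty replicate 3 kept. The own values for OGD-miR-29 were 0.43 for Arc, -0.54 ± 0.23 for Homer1, -0.17 for Btg2, 0.31 for Gadd45g and -0.66 ± 0.26 for Rgs2, so that Homer1 and Rgs2 lay lower than in the authors' deposited table. Directions were the same in both sources for all 5 genes.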

How the data were processed

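RNA-seq read counts per gene symbol for 12 columns were deposited by the authors as raw values. The submitters' processing notes name mm10, edgeR, featureCounts 1.4.3-p1 and STAR 2.5.0a with no role. Not given in the sources used here are strand, annotation and counting region. The authors' deposited comparison tables hold log2 fold changes, a likelihood ratio score, p-values and false discovery rates. Of the per-sample columns, 0 matched no sample.

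The 5 genes and the related lists were chosen with earlier results of these data known. The 11 count libraries entered 1 fit with 4 group means in edgeR 4.0.16 (R 4.3.3), with TMM scaling, filterByExpr, robust quasi-likelihood F test and Benjamini-Hochberg adjustment over 12119 genes, with calls made below 0.05. Standard errors are the log2 fold change over the square root of F. The planned fit had left out the column labelled sham-empty replicate 3. Scripts were tested on simulated data. Per the design text, replicate sets are cultures from distinct days, so numbers pair the libraries. Of 15 same-day pairs of deviations from group means, 9 correlated positively (-0.09 to 0.23). Pairs from different days were not compared, so these values cannot tell whether libraries of a day were more alike. Library intervals and standard errors cover these cultures only. The genes named were the 5 members, called list genes with the members' paralogs and, for each member, the 3 genes most correlated in log2 CPM (prior count 2, mean of at least 10 counts). The per-library length trend was a lowess curve (span 0.3) of log2 CPM on gene span from GENCODE M21, in which 11925 genes had a length. Alternatives were DESeq2 1.42.0 (size factors, Wald test), limma 3.58.1 (voom), no filter, the day block, the length trend, mitochondrial rows left out, the 12th column kept, compared groups alone and each library left out. Values of 1 gene counted in the lists are not reported here.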

Additional observations from a re-analysis of the deposited data

Results flagged for a closer look

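For Homer1 and Btg2 the change with OGD differed between the viruses in the interaction term, by -1.18 and 1.39 on the log2 scale. After removal of the length trend with day as a block these were -0.55 ± 0.28 and 0.84 ± 0.45. Both values come from a comparison that helped to choose the genes, so they are given without a test. Homer1 was also higher after OGD in 2 of 2 pairs under the empty virus, by at most 0.396, and lower in 3 of 3 pairs under the miR-29 virus, a difference of direction between pairs that was not tested apart from that term.

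Among related genes, the interaction passed an adjusted p under 0.05 (edgeR) for 12. The term called 8.38% of all genes, 4.72% positive and 3.66% negative. Lower with OGD under miR-29, relative to the empty virus, were the AP-1 member Fosl2 (-1.40), the G protein regulator Rgs17 (-2.34), the scaffold Shank2 (-1.78), Gnaq (-1.58), the transcription factors Mef2a (-1.66), Mef2c (-1.28) and Mef2d (-1.51), the acetyltransferase Ep300 (-1.65), the kinase Camk4 (-1.77), Hdac4 (-1.81) and the p53 target Zmat3 (-1.70). Junb was higher (1.06) and can hold reads of Prdx2. Of these, Fosl2, Rgs17, Mef2d and Zmat3 were still called with the length trend out and day as a block (-1.60, -1.83, -1.70 and -1.89). Over 20 alternatives the call was lost in 11 for Gnaq, 10 for Junb and 9 each for Mef2d and Ep300. It was lost in 8 each for Shank2 and Mef2c, and in 2 to 7 for the rest.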

How the results depend on the processing

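For the 5 genes, the differences between viruses after OGD kept their direction in all 21 alternatives, and over single libraries left out ranged from 0.68 to 1.13 for Arc, -0.92 to -0.72 for Homer1, 1.10 to 1.42 for Btg2, 1.12 to 1.47 for Gadd45g and 0.57 to 0.86 for Rgs2. The tested member differences passed the threshold in none of the alternatives run. Counts of called genes moved as follows. For OGD under the empty virus 617 became 388 (limma-voom), 1369 (replicate block), 268 (length trend removed) and 201 (compared groups alone), and 12 to 984 with 1 library left out. For OGD under the miR-29 virus 2 became 5 (replicate block), 27 (length trend and block), 17 (length trend), 6 (12th column kept) and 5 (groups alone), and 2 to 21 with 1 library left out. Between viruses after OGD 4501 became 2820 (length trend and block) and 2650 (length trend), and 3190 to 4519 with 1 library left out. The interaction count, 1015, became 1861 (replicate block) and 545 (length trend), and 64 to 1516 with 1 library left out. Between viruses in sham it stayed 0 in all alternatives run. After OGD, 3 related genes turned direction with the length trend removed, with and without the block: with both, Dlgap1 was at 0.0978, Itpr1 at 0.438 and Mkl1 at 0.0548, and without the block at 0.0604, 0.442 and 0.0533. Of 80 calls of related genes, the block lost 0 and the length trend with the block kept 22. The cause was not tested. Single libraries of 5 to 18 counts limit Gadd45g, and n = 2 limits each comparison with sham-empty.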
